A study of Mus musculus with 6 samples.

Results

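Titin (Ttn), nebulin (Neb), the myosin-binding proteins (Mybpc1, Mybpc2, Mybph) and the myomesins (Myom1, Myom2, Myom3) are the long scaffold and M-band proteins of the muscle sarcomere. Their 8 genes were taken by symbol from a table of 11815 genes of the mouse gastrocnemius, a mostly fast muscle of the calf, and all 8 had values in every library. RNA was sequenced from wild-type (WT) mice and from lnc-ORA knockout (KO) mice, which lack a long non-coding RNA. The KO animals came from fertilized eggs injected with Cas9 mRNA and a pair of guide RNAs that cut out 5147 bp, the complete transcript included. WT and KO mice shared the C57BL/6 background and were 15 weeks old. Founders were mated with wild-type mice, and the labels do not say how many founder lines or litters the animals came from. Each genotype had 3 libraries, numbered 2, 3 and 4 for WT and 1, 2 and 3 for KO. The study asked about the part of lnc-ORA in the conversion of fibre types.

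A sarcomere is built from thin actin filaments anchored at the Z-discs and thick myosin filaments cross-linked at the M-band. Titin runs from the Z-disc to the M-band and acts as a spring and a ruler, and nebulin lies along the thin filament of skeletal muscle. Myosin-binding proteins sit in stripes along the thick filament and tune the myosin heads, with a slow form from Mybpc1, a fast form from Mybpc2 and a smaller relative, protein H, from Mybph. Myomesins bridge neighbouring thick filaments: Myom1 is found in all striated fibres, Myom2 encodes the M-protein of fast fibres, and Myom3 has been reported mainly in fibres of intermediate speed.

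The library totals implied by the values were 54370178 to 69693907 reads. Levels are given as RPKM, reads scaled by gene length and by library total. Comparisons of level between genes depend on the length used for each. Libraries of a group differed far beyond sampling noise (chi-square divided by its degrees of freedom, 16.8 or more). Whether every library is a separate animal is not in the labels, so the p-values rest on a spread that may be technical. All 10 defining genes of fast skeletal muscle were present, with a summed level of 135852 to 170384 RPKM. The level of lnc-ORA was not analysed here, and the genotype labels were taken as given. A gene was called when its adjusted p in the limma fit over all 7574 tested genes was under 0.05. By that rule 17.3% of tested genes were called, 13.5% lower and 3.83% higher in KO. Lower calls were 77.9% of all calls, but 52.5% with library medians made equal and 37.7% with library totals that left out the 10 most abundant genes. The median log2 fold change (KO minus WT) of all tested genes was -0.09, 0.01 and 0.05 in these fits.

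Of the 8 genes, 2 fell in KO muscle, Mybpc1 and Myom3, and none rose, against 13.5% and 3.83% of tested genes. At an unadjusted p under 0.05 it was the same count of 2, against 33.4% of tested genes. Ttn, Neb, Mybpc2, Myom1, Myom2 and Mybph did not pass. The median log2 fold change of the 8 was -0.14, beside -0.09 for all tested genes. In bulk muscle RNA, fewer fibres of a kind and less RNA per fibre cannot be told apart.

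**Figure D1:**
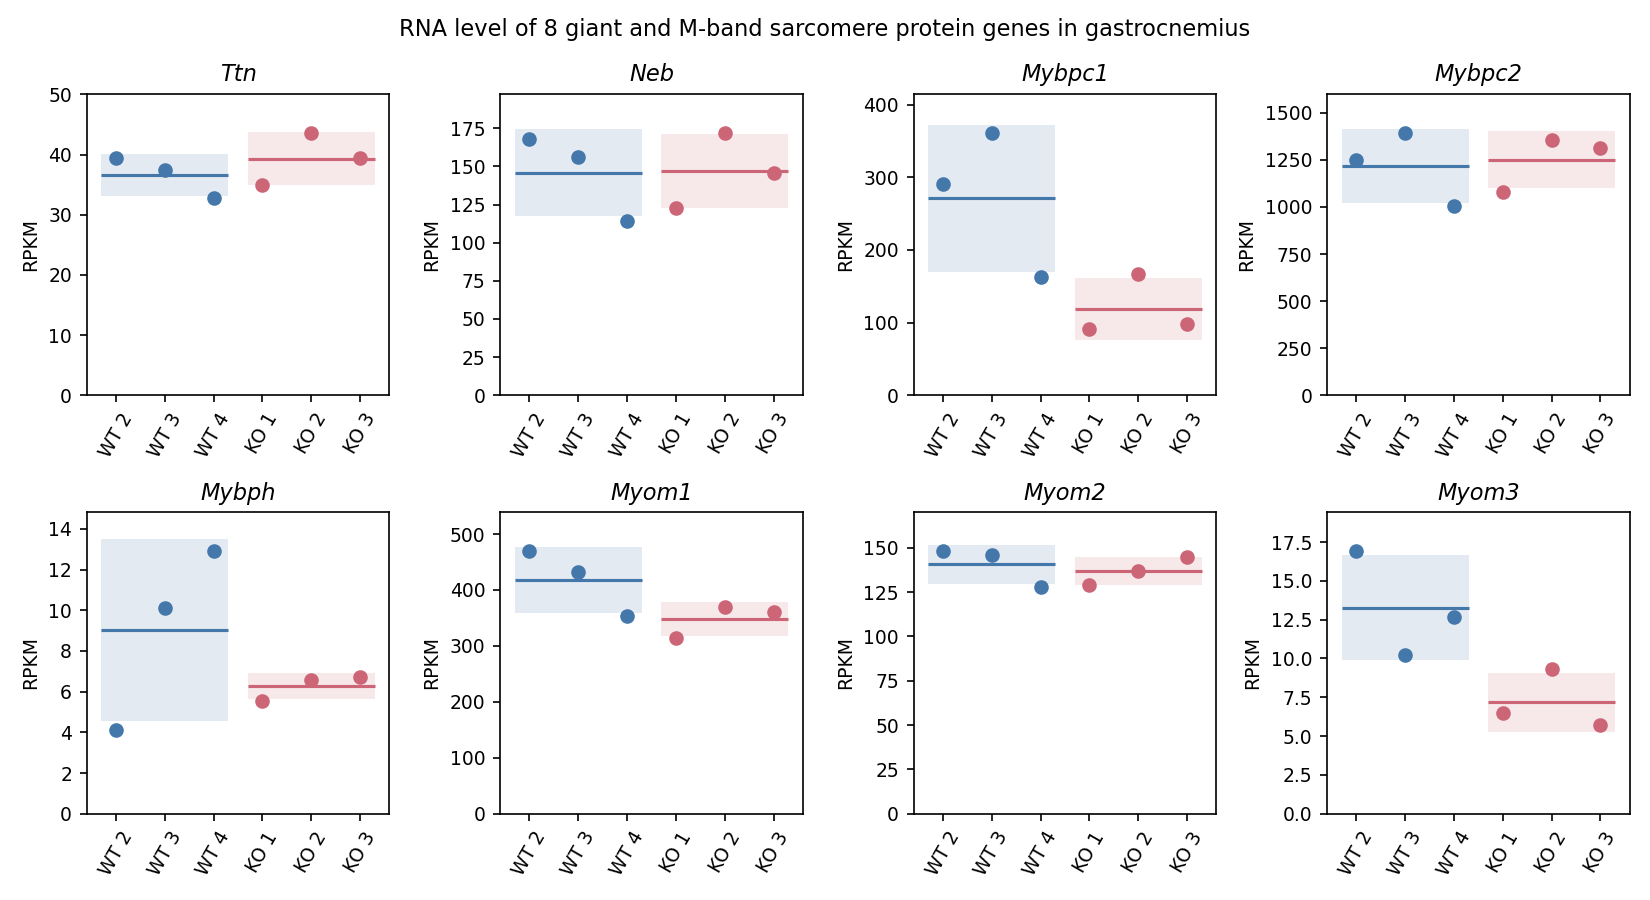
RPKM of each of the 8 genes (vertical axes, from 0) in the 3 WT libraries (blue) and the 3 KO libraries (red). Lines are group means and bands are ± 1 SD. Myom3 is lower in every KO library than in any WT library, and the other 7 genes overlap between the genotypes, Mybpc1 only between WT replicate 4 (162) and KO replicate 2 (167).

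The levels spanned a wide range, and their order depends on the gene lengths used. For Myom2 the length was 8853 bases, all its annotated exons. For Myom1 the length inferred from the values was 5672, against 10459 annotated exonic bases. In WT muscle Mybpc2 was the most abundant, at 1216 ± 197 RPKM (SD, n = 3), followed by Myom1 at 418 ± 59.4 and Mybpc1 at 271 ± 101. Neb (146 ± 28.7 RPKM) and Myom2 (141 ± 11.1) did not differ beyond their spread, Ttn stood at 36.6 ± 3.48, and Myom3 (13.2 ± 3.40) and Mybph (9.03 ± 4.48) overlapped. In KO muscle Mybpc1 moved from the third to the fifth place, into the range of Neb and Myom2, and the other genes kept their order. Because its annotated exons add up to 116825 bases, Ttn took 238500 to 321367 reads per library at this modest RPKM, while Mybph rested on 666 to 1962 reads and Myom3 on 2111 to 7104. Together the 8 genes took 1.44% to 1.90% of each library's reads.

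The RNA of titin, the largest of these proteins, showed no difference between genotypes beyond the spread. Ttn (chromosome 2, 76703980 to 76982547, minus strand, GRCm38) has 347 exons in its longest coding transcript, of 105639 coding bases. Its level was 39.5, 37.5 and 32.7 RPKM in WT replicates 2, 3 and 4, and 34.9, 43.6 and 39.5 in KO replicates 1, 2 and 3. The ranges overlap, with the lowest value in a WT library and the highest in a KO library. The log2 fold change was 0.10 (95% interval -0.15 to 0.35, adjusted p = 0.559). The values sum all isoforms, so a shift between titin splice forms could not be read from them.

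The RNA of nebulin did not pass either. Neb (chromosome 2, 52136647 to 52378474, minus strand, GRCm38) was at 168, 156 and 114 RPKM in the WT libraries and at 123, 172 and 146 in the KO libraries. WT replicate 4 and KO replicate 1 were the lowest of their groups for Neb, Ttn, Mybpc1, Mybpc2, Myom1 and Myom2 alike. The log2 fold change of Neb was 0.02 (95% interval -0.38 to 0.41, adjusted p = 0.961). The ratio of Ttn to Neb within a library does not depend on how libraries were scaled. It was 0.235, 0.240 and 0.288 in WT and 0.283, 0.253 and 0.271 in KO (exact permutation test, two-sided p = 0.500, n = 3 each). In this and the other ratio tests, 3 libraries against 3 cannot give a p below 0.1.

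The RNA of the slow form of myosin-binding protein C fell in KO muscle, and that of the fast form did not pass the test. Mybpc1 (chromosome 10, 88518279 to 88605152, minus strand, GRCm38) stood at 290, 361 and 162 RPKM in WT replicates 2, 3 and 4, and at 90.8, 167 and 98.1 in KO replicates 1, 2 and 3. WT replicate 4, the lowest WT library, and KO replicate 2, the highest KO library, were level, so the groups touch. The mean went from 271 ± 101 to 119 ± 42.2 RPKM (SD, n = 3 each), which is -1.16 in log2 fold change (SE 0.32, adjusted p = 0.0418). The call rests on single libraries: without WT replicate 2 the adjusted p was 0.0879, without WT replicate 3 it was 0.121, and without KO replicate 1 or 3 it was 0.136 and 0.137. It also ended with totals that left out the 10 most abundant genes (log2 fold change -0.98, adjusted p = 0.0707). Every alternative kept the log2 fold change at or below -0.92.

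Mybpc2 (chromosome 7, 44501699 to 44524656, minus strand, GRCm38) was at 1249, 1394 and 1005 RPKM in the WT libraries and at 1079, 1358 and 1316 in the KO libraries. The 2 ranges lie over each other, and the log2 fold change was 0.05 (95% interval -0.29 to 0.38, adjusted p = 0.851). The level of Mybpc1 per unit of Mybpc2 was 0.232, 0.259 and 0.162 in WT and 0.0842, 0.123 and 0.0746 in KO. Every KO library lay below every WT library in this ratio, a log2 difference of -1.22, with the smallest p that the exact permutation test allows (two-sided p = 0.1, adjusted over 5 ratios p = 0.167). Of the summed RPKM of the 3 myosin-binding protein genes, the WT share of Mybpc1 was 17.7% ± 3.49 and its KO share 8.52% ± 2.12 (SD, n = 3 each). The shares of Mybpc2 were 81.7% ± 3.16 and 91.0% ± 2.10.

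The RNA of protein H differed more between WT libraries than between genotypes. Mybph (chromosome 1, 134193448 to 134201232, plus strand, GRCm38) stood at 4.10, 10.1 and 12.9 RPKM in WT replicates 2, 3 and 4, a 3.13-fold span, and at 5.55, 6.57 and 6.71 in the KO libraries, a 1.21-fold span. WT replicate 2 lay below every KO library, and WT replicates 3 and 4 lay above. The log2 fold change was -0.35 (SE 0.32, adjusted p = 0.482). Without WT replicate 2 it was -0.77 and passed (adjusted p = 0.00854). In the annotation 49.9% of the exonic bases of Mybph (1162 bases) lie opposite exons of Adora1, an adenosine receptor gene on the other strand, and 45.0% of the 50-base stretches of its longest coding transcript occur in Adora1 transcripts. Adora1 had the same order of libraries in WT, with 0.910, 2.38 and 2.93 RPKM, and 1.33, 1.54 and 1.62 in KO. The sources used here do not say how the authors' counting treated strand, so reads of these genes cannot be told apart. Overlaps with exons of other genes covered at most 5.57% of the exonic bases of Ttn, Neb, Mybpc1, Mybpc2 and Myom1, and the 50-base stretches of the longest coding transcripts of Myom1, Myom2 and Myom3 occurred in no other gene's transcripts.

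Of the genes of the myomesins, which cross-link the thick filaments at the M-band, 1 of 3 passed the test, against 17.3% of tested genes. Myom3 (chromosome 4, 135759715 to 135815564, plus strand, GRCm38) fell, from 16.9, 10.2 and 12.7 RPKM in WT replicates 2, 3 and 4 to 6.48, 9.34 and 5.72 in KO replicates 1, 2 and 3. Every KO library lay below every WT library, as in 30.0% of tested genes, and KO replicate 2 came within 1 RPKM of WT replicate 3. The mean went from 13.2 ± 3.40 to 7.18 ± 1.91 RPKM (SD, n = 3 each), which is -0.80 in log2 fold change (SE 0.20, adjusted p = 0.0338). The call held in all 6 fits that kept the 6 libraries. With totals that left out the 10 most abundant genes it was at the threshold (log2 fold change -0.63, adjusted p = 0.0499). It ended without WT replicate 2 or 4 (adjusted p = 0.0632 and 0.0506) and without KO replicate 1 or 3 (adjusted p = 0.109 and 0.122), with log2 fold changes from -0.62 to -0.81.

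Myom1, the myomesin common to all fibres, did not pass. Myom1 (chromosome 17, 71002633 to 71126856, plus strand, GRCm38) was at 469, 432 and 353 RPKM in WT and at 314, 370 and 361 in KO, with a log2 change of -0.26 (95% interval -0.54 to 0.03, adjusted p = 0.195). Only WT replicate 4 lay within the KO range, and without it the log2 fold change was -0.37 and passed (adjusted p = 0.0413). Myom2, the fast M-protein (chromosome 8, 15057653 to 15133541, plus strand, GRCm38), was the steadiest of the 8. It was at 148, 146 and 128 RPKM in WT and at 129, 137 and 145 in KO, with a log2 change of -0.03 (95% interval -0.25 to 0.18, adjusted p = 0.824).

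Set against Myom2 in the same library, the RNA of both other myomesins was lower in the KO libraries. The ratio of Myom1 to Myom2 was 3.17, 2.96 and 2.76 in WT and 2.43, 2.69 and 2.49 in KO, and the ranges do not overlap. The ratio of Myom3 to Myom2 was 0.114, 0.0695 and 0.0993 in WT and 0.0503, 0.0680 and 0.0395 in KO, again without overlap. The log2 differences were -0.22 and -0.85, each at the smallest p the exact permutation test allows (two-sided p = 0.1, adjusted over 5 ratios p = 0.167). By contrast, Mybph per Mybpc2 did not differ beyond its spread (log2 difference -0.42, exact permutation test, two-sided p = 0.700). With 3 libraries against 3, none of the 5 ratios could pass at 0.05 in this test. How often ratios of other gene pairs separate the genotypes was not tested. A ratio can show only that members changed unequally, not which of them changed. In shares of the summed myomesin RPKM, Myom1 went from 73.0% ± 1.30 to 70.7% ± 0.882, Myom2 from 24.7% ± 1.30 to 27.9% ± 1.13 and Myom3 from 2.32% ± 0.517 to 1.46% ± 0.345 (SD, n = 3 each). The size of these shares depends on the gene lengths used.

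**Figure D2:**
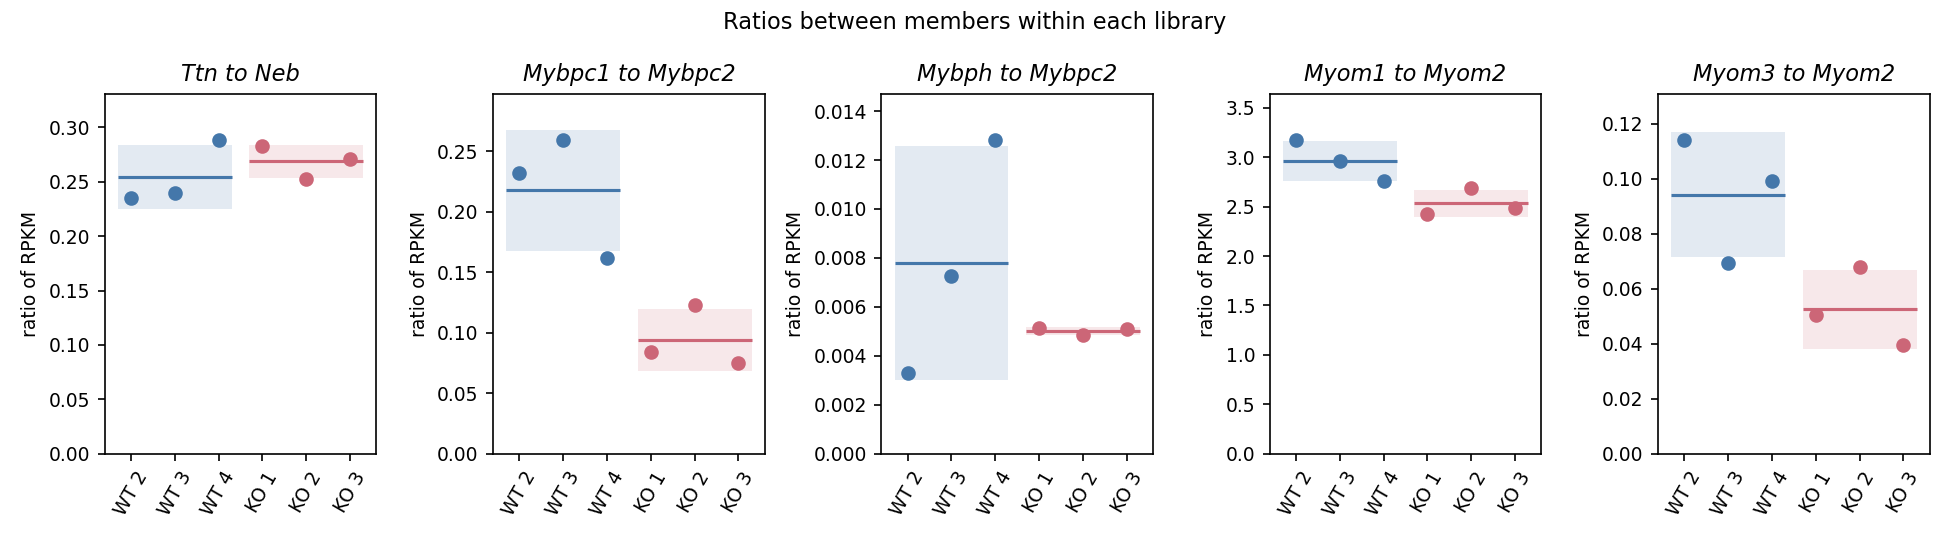
Ratio of the RPKM of 2 members within each library (vertical axes, from 0) for WT (blue) and KO (red), with group means as lines and ± 1 SD as bands. Mybpc1 to Mybpc2, Myom1 to Myom2 and Myom3 to Myom2 separate the genotypes, while Ttn to Neb and Mybph to Mybpc2 overlap.

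**Figure D3:**
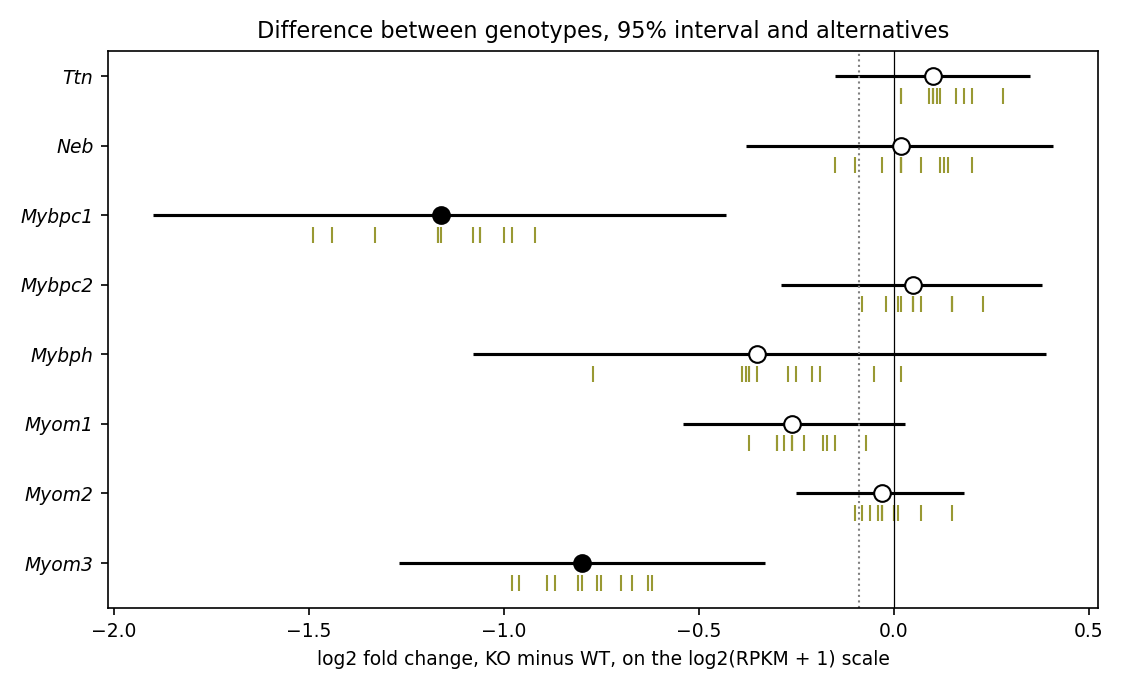
Log2 fold change, KO minus WT, of each gene in the limma fit (circles, filled where called) with its 95% interval, and the values of the alternatives below it (ticks). The dotted line marks the median of all tested genes at -0.09. Mybpc1, Myom3 and Myom1 stay below 0 under every alternative and Ttn above it, while the ticks of Neb, Mybpc2, Mybph and Myom2 fall on both sides.

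Since Mybpc1 and Myom3 fell and the fast form Mybpc2 did not, the promoters of these 3 genes are shown for comparison. RefSeq promoters (GRCm38.p6, 250 bases before to 50 after the start) were at hand for 6 of the 8 genes. Both strands were searched for the E-box CANNTG, the site family of the myogenic regulators, for the MEF2 box, for the CArG box of serum response factor and for the MCAT motif CATTCC of TEAD factors. Capitals mark every match. The sequences lie at chr10:88605103-88605402 (minus strand), chr4:135759465-135759764 (plus strand) and chr7:44524620-44524919 (minus strand).
Mybpc1: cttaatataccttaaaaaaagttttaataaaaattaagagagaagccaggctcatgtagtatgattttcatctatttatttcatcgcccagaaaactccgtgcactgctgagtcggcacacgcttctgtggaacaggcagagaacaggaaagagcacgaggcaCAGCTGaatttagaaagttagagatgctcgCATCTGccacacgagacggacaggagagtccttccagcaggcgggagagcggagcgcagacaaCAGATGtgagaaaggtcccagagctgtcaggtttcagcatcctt
Myom3: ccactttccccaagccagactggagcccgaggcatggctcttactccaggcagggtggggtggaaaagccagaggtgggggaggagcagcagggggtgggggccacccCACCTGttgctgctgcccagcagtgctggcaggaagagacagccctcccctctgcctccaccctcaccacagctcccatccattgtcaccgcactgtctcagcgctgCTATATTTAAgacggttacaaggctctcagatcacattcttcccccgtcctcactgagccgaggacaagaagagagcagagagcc
Mybpc2: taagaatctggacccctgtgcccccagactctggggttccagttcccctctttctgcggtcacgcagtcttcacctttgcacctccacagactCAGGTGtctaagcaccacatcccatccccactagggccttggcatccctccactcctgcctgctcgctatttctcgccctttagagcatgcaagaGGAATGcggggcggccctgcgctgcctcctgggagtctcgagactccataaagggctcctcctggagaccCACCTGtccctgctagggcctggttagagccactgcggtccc

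The Mybpc1 window held 3 E-boxes, of which 2 lay 87 and 57 bases before the start, and none of the other motifs. The Myom3 window held 1 E-box and a MEF2 box that starts 35 bases before the start. A MEF2 box occurred in 3.19% of 32817 mouse promoters of the same length, and among the 6 member promoters also in that of Ttn, which did not pass. The Mybpc2 window held 2 E-boxes and 1 MCAT motif, which is found in 14.7% of promoters. E-boxes occurred in 72.3% of all promoters and in all 6 member promoters, and CArG boxes in 1.63% of all promoters and in that of Myom1. These matches describe the letters of the windows only.

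A myosin gene and an alpha-actinin gene were among the closest profiles to the 2 genes that fell. Closeness was the root mean square distance between log2 profiles over the 6 libraries, each centred on its mean, among 1836 genes of at least 10 RPKM. For Mybpc1, with a spread of 0.73, the nearest were Gm12300 (distance 0.13) and Myh1 (0.16), which encodes type IIx myosin. Gm12300 was at 572, 663 and 332 RPKM in WT and at 218, 308 and 191 in KO. Whether Gm12300 and Myh1 share reads was not tested. Myh1 was at 2674, 2956 and 1666 RPKM in WT and at 1053, 1466 and 885 in KO, and like Mybpc1 it was highest in WT replicate 3 and lowest of WT in replicate 4, while KO replicate 3 rather than 1 was its lowest. For Myom3, with a spread of 0.48, the nearest were Actn2 (0.08), the gene of an alpha-actinin of the Z-disc, and Hmgn5 (0.09), a nucleosome-binding protein gene. Actn2 was at 349, 244 and 269 RPKM in WT and at 135, 216 and 134 in KO.

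For Mybph, with a spread of 0.48, the nearest was Actc1 (0.25), the cardiac actin gene, at 57.9, 130 and 167 RPKM in WT and 58.2, 56.8 and 67.9 in KO. Like Mybph, it was low in WT replicate 2 and high in WT replicates 3 and 4. Pgk1, a glycolytic enzyme gene, followed at 0.31. The other members varied little, with spreads of 0.08 to 0.22, and their nearest genes (Strn3 and Flot2 for Ttn, Fech and Kif5b for Neb, Pgp and Atp2a1 for Mybpc2, Golga5 and Dcaf6 for Myom1, Trap1 and Fam114a2 for Myom2) lay within 0.07. Among the members themselves Ttn, Neb, Mybpc2 and Myom2 lay within 0.16 of each other, while Mybpc1 and Myom3 were 0.48 apart.

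**Figure D4:**
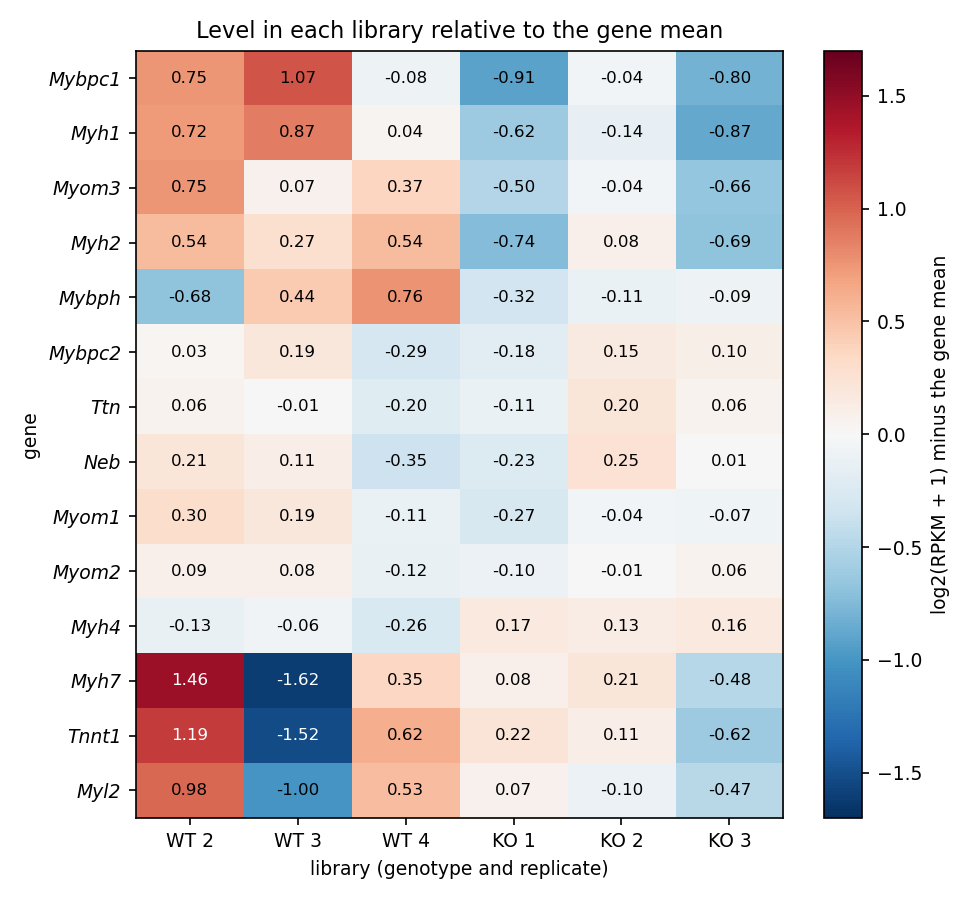
Log2(RPKM + 1) of the 8 genes and of 6 myosin and slow-fibre genes in each library, minus the gene's mean over the 6 libraries (colour and printed value). Mybpc1 and Myh1 are highest in WT replicate 3 (1.07 and 0.87), while Myh7 and Tnnt1 are at their lowest there (-1.62 and -1.52).

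Slow-fibre genes differed widely between the WT libraries. The summed RPKM of 9 slow-fibre genes was 1098, 176 and 693 in WT replicates 2, 3 and 4, and 505, 544 and 337 in KO replicates 1, 2 and 3. None of the 9 was called in limma, against 17.3% of tested genes, and none passed at an unadjusted p under 0.05, against 33.4%. Of the 9, 88.9% lay below 0, as did 67.6% of all tested genes. The median log2 fold change of the 9 was -0.19, beside -0.09 for all tested genes. Myh7, the slow myosin, was at 269, 30.9 and 124 RPKM in WT and at 103, 112 and 69.3 in KO. WT replicate 3 was lowest for Myh7 and highest for Mybpc1. The log2 fold change of Myh7 was -0.13 (adjusted p = 0.914), and those of Tnnt1, the slow troponin T, and Myl2, the slow regulatory light chain, were -0.19 and -0.34 (adjusted p = 0.853 and 0.626). Without WT replicate 3 the values were -0.92 for Mybpc1 (adjusted p = 0.121), -0.96 for Myom3 (adjusted p = 0.0361) and -0.93 for Myl2 (adjusted p = 0.0358). In the same fit Myh7 was at -0.97 (adjusted p = 0.120) and Tnnt1 at -1.0 (adjusted p = 0.0698), and neither passed.

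Markers of other cells moved with genotype in part. Of the 4 tested nerve and Schwann cell markers, all 4 fell, against 13.5% of all tested genes, and the sum over 5 was 30.8, 49.0 and 36.1 RPKM in WT and 9.69, 6.98 and 8.12 in KO, with none at 0. Of 5 endothelial markers 1 fell, against 13.5% of tested genes, and all 5 were below 0, against 67.6%. At an unadjusted p under 0.05, 3 passed, all lower, against 33.4% of tested genes in either direction (sum 17.3 to 28.2 RPKM in WT and 14.2 to 15.3 in KO). Of 4 tested fibroblast markers 1 rose, against 3.83% of tested genes (sum 11 to 18.9 and 14.9 to 19.7). None of the 3 tested haemoglobin genes was called or passed an unadjusted p under 0.05 in limma (sum with 3 blood and macrophage genes under the filter 23.5 to 40.3 and 17.0 to 98.5 RPKM). The same held for both measured cardiac markers (sum 2.64 to 7.94 and 2.24 to 4.44). No macrophage marker was tested, and the adipocyte markers were not analysed here. The part of these cells in the changes of Mybpc1 and Myom3 was not tested.

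Of 21 tested genes tied to titin or the M-band, 5 fell and 1 rose, against 13.5% and 3.83% of all tested genes. Besides partners of titin and M-band proteins, the list holds the RNA-binding proteins Rbm20 and Rbm24. At an unadjusted p under 0.05 there were 11 lower and 1 higher, against 33.4% in either direction. Over all tested genes that threshold gave 1957 lower and 575 higher. Of the 21, 76.2% lay below 0, as did 67.6% of all tested genes, with a median log2 fold change of -0.20, beside -0.09 for all tested genes. Fhl3, a LIM-only protein gene, went from 43.1, 42.6 and 28.5 RPKM in WT to 13.6, 14.9 and 15.8 in KO (log2 fold change -1.29, SE 0.16, adjusted p = 0.00279). Its relative Fhl1, a titin-binding protein, went from 56.0, 53.9 and 49.4 to 22.3, 34.3 and 18.6 RPKM (-1.10, adjusted p = 0.00949). Igfn1, which shares the immunoglobulin and fibronectin domains of the giant proteins, went from 3.53, 3.67 and 1.99 to 0.526, 1.09 and 1.12 RPKM (-1.08, adjusted p = 0.00984). The change of this low gene was -1.66 with a pseudocount of 0.1 and -1.79 in limma-voom on the recovered reads.

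In Fhl3, Fhl1 and Igfn1 every KO library lay below every WT library, as in 30.0% of tested genes, and each was called in all 12 alternatives. Ankrd2, the stretch-responsive partner of titin's N2A region, was at 382, 146 and 223 RPKM in WT and 76.6, 145 and 70.9 in KO (-1.32, adjusted p = 0.0450). Its call ended without WT replicate 2 or 4 (adjusted p = 0.0806 and 0.0671), without KO replicate 1 or 3 (0.140 and 0.15), and with totals that left out the 10 most abundant genes (0.0561). The remaining 2 calls, named here after their values were seen, were Sqstm1, an autophagy adaptor, and Trim55, a muscle ubiquitin ligase that binds titin. Sqstm1 was at 160, 147 and 111 RPKM in WT and 82.2, 89.0 and 94.3 in KO (-0.64, adjusted p = 0.0197). Its call ended without WT replicate 3 (adjusted p = 0.0677), without any KO replicate (0.0581 to 0.0774) and with totals that left out the 10 most abundant genes (0.0669). Trim55 rose, from 11.4, 11.8 and 11.2 to 13.6, 17.0 and 14.5 RPKM (0.36, adjusted p = 0.0387), a call that ended when any 1 library was left out (0.0555 to 0.110).

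No gene among nebulin's relatives and the builders of the thin filament was called. None of the 17 tested passed, with 11 above 0 and 6 below and a median log2 fold change of 0.08 in limma, while 6 passed at an unadjusted p under 0.05, 4 lower and 2 higher, a share of 35.3% beside 33.4% of all tested genes. The smallest p was that of Lmod3, a leiomodin that starts thin filaments, at 39.6, 37.9 and 46.5 RPKM in WT and 48.5, 53.6 and 48.3 in KO. Every KO library lay above every WT library, as in 9.22% of tested genes, and the log2 fold change was 0.28 (adjusted p = 0.0943). It passed with library medians made equal (0.38, adjusted p = 0.0459), with totals that left out the 10 most abundant genes (0.46, adjusted p = 0.0151) and without WT replicate 4 (0.36, adjusted p = 0.0256).

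Of 8 tested genes of the thick filament and its assembly, 2 fell and 1 rose, against 13.5% and 3.83% of all tested genes. At an unadjusted p under 0.05 there were 2 lower and 4 higher, against 33.4% in either direction. Over all tested genes that threshold gave 1957 lower and 575 higher. The median log2 fold change of the list was 0.10, beside -0.09 for all tested genes. Myh1 fell (log2 fold change -1.09, adjusted p = 0.0225) and so did Myh2, the myosin of type IIa fibres (-0.90, adjusted p = 0.0261). Hsp90aa1, the chaperone that helps fold myosin, went from 21.2, 15.8 and 17.0 to 25.6, 32.5 and 24.0 RPKM (0.58, adjusted p = 0.0297). Both myosin calls were lost without WT replicate 2 (adjusted p = 0.0513 and 0.0560), WT replicate 3 (0.0747 and 0.0534), KO replicate 1 (0.0789 and 0.0944) or KO replicate 3 (0.0885 and 0.102). That of Hsp90aa1 ended without WT replicate 3 or 4 (0.0957 and 0.0526) or any KO replicate (0.0568 to 0.0820). Myh4, the type IIb myosin and the most abundant gene of the list, named after its values were seen, was at 33937, 35804 and 31050 RPKM in WT and 41918, 40638 and 41478 in KO. Every KO library lay above every WT library, as in 9.22% of tested genes, and the log2 fold change of 0.30 did not pass (adjusted p = 0.0885). It passed with totals that left out the 10 most abundant genes (0.48, adjusted p = 0.0323).

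The authors' deposited table gives its own comparison, and none of the 8 genes has a false discovery rate under 0.05 there, as against 1.62% of all 11815 genes. In the authors' deposited table Myom3 is at -0.61 on the log2 scale (FDR 0.0888), Mybpc1 at -0.74 (FDR 0.265) and Mybph at 0.09 (FDR 0.929). The log2 ratios of the mean RPKM of the same genes were -0.88, -1.19 and -0.52. The authors' value exceeds that ratio by 0.13 in the median tested gene, by 0.46 for Mybpc1 and by 0.62 for Mybph, more than for 98.9% and 99.6% of tested genes in the authors' deposited table. The sources used here do not name the test behind those columns, and the reason for the difference was not tested.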

How the data were processed

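The authors deposited 1 table of values per gene and library. Its header gives no unit, and the deposited values were read as RPKM because they scale with gene length and library total. Log2 fold changes, log2 CPM, an F score, p-values and false discovery rates of their own comparison stand beside them, per the file headers. The submitters' processing notes name the build GRCm39, and the aligner, the counter and the annotation release are not named in the sources used here. Whole reads (within 0.02) came back in all 6 libraries for 99.8% of genes when RPKM was rescaled by length and total. Lengths came from GENCODE M21 (9208 genes) or were inferred from the values (2587 genes, Myom1 among them, so its reads are the fewest that give whole numbers). The depth behind each member is given as its range of reads. Coordinates are those of GENCODE M21 (GRCm38).

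Because the values are RPKM and not counts, log2(RPKM + 1) was fitted by limma-trend (limma 3.58.1 in R 4.3.3), with moderated variances and no term but genotype. Tested genes reached 1 RPKM in 3 or more libraries, and p-values were adjusted over all of them by Benjamini-Hochberg. Fold changes on this scale understate the change of low genes. The fit was tested on simulated data with known changes. Ratios between members used an exact permutation test, two-sided, over the libraries. Members, gene lists and ratios were chosen with earlier results of these data known. Named genes were the members, up to 4 called genes per list by size of change or the one with the smallest p, Myh7, Tnnt1 and Myl2, and the 2 nearest profiles of each member; Adora1, Sqstm1, Trim55 and Myh4 were named after their values were seen. Lists of 22, 19 and 10 genes had 1, 2 and 2 genes not tested. Alternatives were a pseudocount of 0.1, no filter, equal library medians, totals without the 10 most abundant genes, replicate number as a block, limma-voom on the recovered reads and each library left out. Python 3.11.15 with pandas 2.3.3, numpy 2.4.6, scipy 1.17.1 and matplotlib 3.10.9 did the rest.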

Additional observations from a re-analysis of the deposited data

How the results depend on the processing

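Alternatives were run for 22 genes (the members, the genes named from lists and the slow-fibre genes), not for Adora1, for genes named only as nearest profiles or for markers of other cells. Of 261 values, 196 kept direction and call, 38 lost a call, 9 gained one and 18 changed sign, all of the last in genes that were not called. The 2 calls among the 8 members became 1 with totals that left out the 10 most abundant genes, 0 to 2 with a library left out and 3 with the replicate block. The count of called genes, 1311 in all, ranged from 471 to 1637 with a library left out, the lower calls from 354 to 1293 and the higher from 117 to 344. Lower and higher calls were 665 and 602 with library medians made equal, and 465 and 768 with totals that left out the 10 most abundant genes. With no filter on low values 1847 genes were called of 11815. Myom2 was at 0.07 with equal medians and 0.15 with totals that left out the 10 most abundant genes, where Myh7 was at 0.05. With a library left out, log2 fold changes ranged from -0.15 to 0.14 for Neb, -0.08 to 0.15 for Mybpc2, -0.10 to 0.01 for Myom2, -0.97 to 0.57 for Myh7, -1.0 to 0.35 for Tnnt1 and -0.93 to 0.07 for Myl2, and the ratio of Mybph to Mybpc2 from -0.94 to 0.04. Replicate numbers 2 and 3 occur in both genotypes, and same-numbered libraries deviated together (correlations 0.48 and 0.27 over genes), but so did WT replicate 4 and KO replicate 1 (0.43), so the numbers are not known to pair animals. With the replicate number as a block 1548 genes were called, Myom1 (-0.30, adjusted p = 0.0403) and Lmod3 (0.39, adjusted p = 0.0197) passed, Neb was at -0.03, Mybph at 0.02 and the ratio of Mybph to Mybpc2 at 0.02. Limma-voom on the recovered reads called 1391 genes and gave no value for Myh1, Myh2 and Myh4, whose reads were not recovered. The cause of these changes was not tested.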
